A study of Mus musculus with 3 samples.

Results

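The genes described here are 9 members of the interleukin-1 family, taken by their symbols from a matrix of expression values in mouse mitral valve cells: the ligand genes Il1a and Il1b, the antagonist gene Il1rn, and the receptor genes Il1r1, Il1r2, Il1rl1, Il1rl2, Il18r1 and Il18rap. All 9 were listed, among 3264 genes with a value in every cell. The only samples listed with the matrix are 3 samples of mitral valve labelled mgR (strain B6.129-Fbn1tm2Rmz/J), from mice of 12 weeks whose germline allele yields too little fibrillin-1 in all cells. The valve cells were captured in droplets with a 3′ kit, and each value counts distinct transcripts by their unique molecular identifiers (UMIs). No treatment is labelled, while the study also describes WT mice, mgR mice given rapamycin and an experiment on nuclei. Nothing ties a barcode to a mouse, a genotype or to cells against nuclei, so all 16383 barcodes, called cells here, were read together as 1 sample. Cell types were therefore compared within 1 pooled sample, and genotypes, mice and tests across samples were not. Ptprc cells had at least 1 UMI of Ptprc, which encodes the leukocyte protein CD45, and were split by Mrc1, the mannose receptor of resident macrophages. Fibroblasts had UMIs of at least 2 of Prrx1, Col3a1 and Dpt and none of Egfl7, and were split by Scn7a, a sodium channel gene. Endothelial cells had UMIs of Egfl7 and of fewer than 2 of those 3 genes.

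Interleukin-1α and interleukin-1β are inflammatory cytokines that bind the same receptor, encoded by Il1r1, and their signal passes through adaptor and kinase proteins to NF-kB. The antagonist made from Il1rn occupies that receptor without activating it, and the decoy receptor made from Il1r2 binds interleukin-1 without passing a signal on. The other receptors serve related cytokines: Il1rl1 encodes ST2, which binds interleukin-33, Il1rl2 encodes the interleukin-36 receptor, and Il18r1 and Il18rap encode the 2 chains of the interleukin-18 receptor. Macrophages are a known source of interleukin-1β, whereas fibroblasts and endothelium are known to respond to it.

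There were 724 Ptprc cells (4.42% of all cells; 413 with Mrc1 and 311 without), 3149 fibroblasts (791 with Scn7a and 2358 without) and 8966 endothelial cells. Their median depths were 5623, 6063 and 5366 UMIs per cell. The groups shared cells: 74 Ptprc cells also met the fibroblast rule and 163 the endothelial rule, which left 487 in Ptprc cells alone. Sorted order broke once in the list of barcodes, which left run 1 with 14222 cells (median 5154 UMIs) and run 2 with 2161 cells (median 6918 UMIs), and 11 barcodes occurred in both. Marker genes that the rules did not use followed the group names. The 10 listed macrophage genes summed to 17.5 UMIs per 10000 in Ptprc cells against 1.07 in fibroblasts, the 7 fibroblast genes to 35.0 in fibroblasts against 9.51 in endothelial cells, and the 8 endothelial genes to 17.9 in endothelial cells against 1.65 in fibroblasts. Endothelial genes at 4.51 and fibroblast genes at 8.62 in Ptprc cells showed that this group was not pure, and without the shared cells these levels were 1.74 and 5.07. Fewer cells expressing a gene and less of its RNA in each cell cannot be told apart in summed levels. Shares of cells are therefore given for Il1a, Il1b, Il1r1 and Il1rl1, and for the other members the number of Ptprc cells with a UMI.

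Of the 9 members, 8 were at least 2 times higher in Ptprc cells than in each other main group, against 10.9% of all 2660 genes with at least 50 UMIs. The remaining member, Il1r1, was at least 2 times higher in fibroblasts than in each other main group, which held for 12.9% of those genes. No member was called this way in endothelial cells, where 6.99% of genes were. All levels below are UMIs of the gene per 10000 UMIs of the same cells, with 95% exact Poisson intervals in parentheses. Ratios have exact conditional binomial intervals and shares of cells exact binomial ones. These intervals cover counting error only, and where 0 UMIs were found the upper limit is the level that 3 counts would give.

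**Figure D1:**
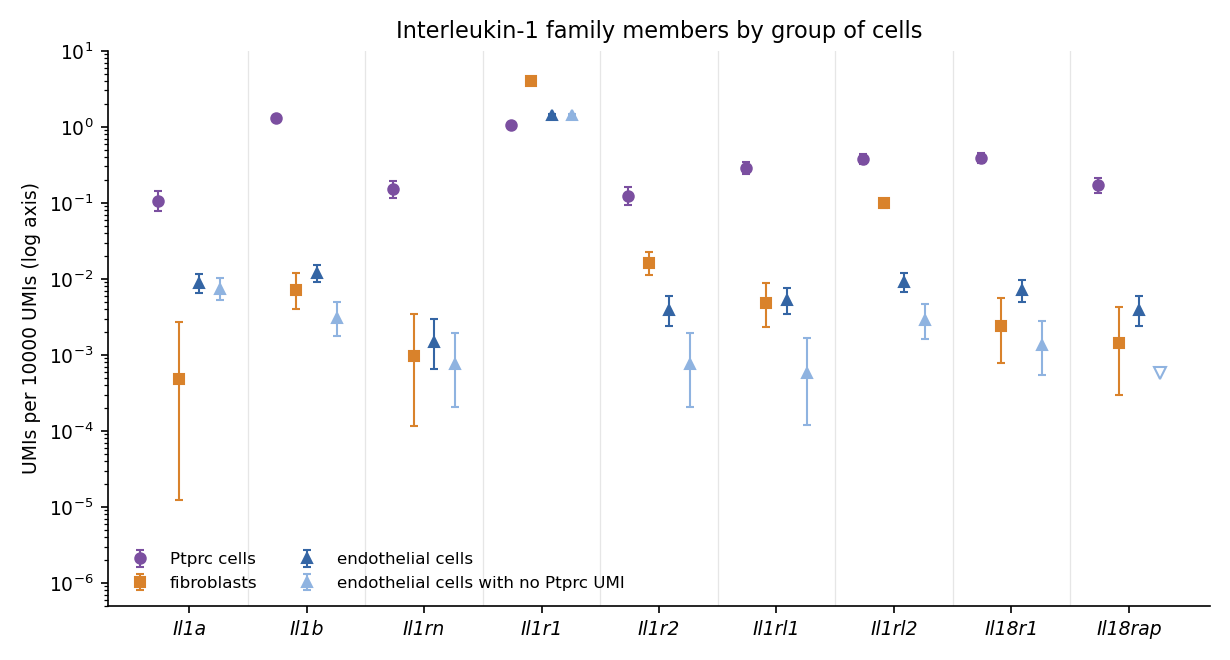
Level of each member on a log axis, in UMIs per 10000, for Ptprc cells, fibroblasts, all endothelial cells and endothelial cells with no Ptprc UMI; bars are 95% exact Poisson intervals and the open triangle is the limit at 0 UMIs. The Ptprc cells lie highest for 8 members and lowest of the 3 main groups for Il1r1, at 1.07 against 3.95 in fibroblasts.

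Il1b had more UMIs in Ptprc cells than any other member. Of its 622 UMIs in the matrix, 580 lay in 100 Ptprc cells. Its level there was 1.31 (1.21 to 1.42), against 0.0119 (0.00916 to 0.0152) in endothelial cells and 0.00718 (0.00402 to 0.0118) in fibroblasts. The intervals of Ptprc cells and of the other groups lay far apart, while those of fibroblasts and endothelial cells overlapped. Leaving out the shared cells raised Il1b in the remaining Ptprc cells to 2.04 (1.87 to 2.22) and lowered it in the remaining endothelial cells to 0.00304 (0.00174 to 0.00494), a 669-fold difference (408 to 1180). Of the 64 endothelial UMIs of Il1b, only 16 were in cells without Ptprc.

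Few cells carried most of the Il1b signal. Each cell was thinned to 2000 UMIs before shares were compared, which kept 666 Ptprc cells, 3057 fibroblasts and 8403 endothelial cells. In these, 8.86% of Ptprc cells (6.81 to 11.3) held Il1b, against 0.190% of endothelial cells and 0.131% of fibroblasts; without thinning the share of Ptprc cells was 13.8%. The cell with the most Il1b had 165 UMIs, the next 49, and the top 5 cells together held 50.3% of the UMIs in the group. Without its top cell the level in Ptprc cells was 0.940. The barcode runs also differed: Il1b in Ptprc cells stood at 0.409 (0.342 to 0.486) in run 1 and at 3.65 (3.32 to 4.0) in run 2. Of the 5 cells with the most Il1b, 4 were in run 2. All 5 held UMIs of at least 2 macrophage genes and none held 2 T and NK cell genes. Depth was also higher in run 2, and the part of depth or library in this difference was not tested.

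Il1a had fewer UMIs and a different spread over cell types. Of its 100 UMIs, 47 were in 34 Ptprc cells and 47 in 37 endothelial cells, some cells being in both groups. The level was 0.106 (0.0780 to 0.141) in Ptprc cells and 0.00874 (0.00642 to 0.0116) in endothelial cells, a 12.1-fold difference (7.93 to 18.6), whereas fibroblasts had 1 UMI. Unlike Il1b, most of the endothelial signal of Il1a stayed when Ptprc cells were left out, with 39 UMIs in 31 cells and a level of 0.00742 (0.00528 to 0.0101). Il1b in the same endothelial cells, with 16 UMIs, was no higher than in the fibroblasts without Ptprc, at 0.00443 (0.00203 to 0.00842), and is not read as endothelial expression here. Il1a was higher in these endothelial cells than in those fibroblasts, which had 0 UMIs and a limit of 0.00148. A UMI of Il1a was found in 0.119% of endothelial cells at 2000 UMIs, in 1.95% of Ptprc cells and in none of the thinned fibroblasts, which allows a share of up to 0.0981% of fibroblasts with a UMI at this depth; without thinning it was found in 1 fibroblast.

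Within the endothelium, Il1a followed particular clusters. Clustering without the 9 members gave 11 clusters, of which 5 were led by endothelial cells (clusters 3, 4, 5, 8 and 9). Cluster 3, with 2778 cells and led by Prnd, Tmem163 and Xirp2, held 34 Il1a UMIs in 28 cells, a level of 0.020 (0.0139 to 0.0280). Cluster 5, led by Lcn2, had 0.0130 (0.00561 to 0.0256), and cluster 4, led by Frem2, Duox2 and Kcnh1, had 0.00559 (0.00205 to 0.0122). In contrast, cluster 8, led by Fmo2 and Selp, and cluster 9, led by Kif26b and Prox1os, had 1 UMI each among 2254 and 3037 cells. The upper limits in these clusters, 0.00474 and 0.00361, lay below the interval of cluster 3. All 34 UMIs of cluster 3 came from run 1, where its level was 0.0222, and run 2 had 0 in 225 cells, with a limit of 0.0178 that does not separate the runs. At resolution 1.0 the Tmem163 cluster again had Il1a, at 0.0189, and cluster 6 at that resolution, led by Syt13 and Lefty1, had 0.0219. That cluster 6 shares Lefty1, Romo1 and Ptma with cluster 5 among its leading genes, while the Lcn2 cluster at resolution 1.0, with 404 cells of which 373 were in run 2, had 0 UMIs of Il1a and a limit of 0.0093. In cluster 5, 7 of the 8 UMIs were in run 1.

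The 2 ligand genes lie side by side on the minus strand of chromosome 2, at chr2:129299610-129309972 for Il1a and chr2:129364570-129371139 for Il1b in GENCODE M21 (GRCm38), 54597 bases apart. Their promoters are shown because these neighbours are the 2 agonist genes of the set. The sequences are from RefSeq on GRCm38.p6, run from 250 bases before to 50 after the start site, and are written 5′ to 3′ on the minus strand. Il1a covers chr2:129309923-129310222 and Il1b covers chr2:129371090-129371389. Capitals mark TATAAA in both and, in Il1a, GAGGAA (an ETS core) and TGANTCA (an AP-1 site), searched on both strands.
Il1a: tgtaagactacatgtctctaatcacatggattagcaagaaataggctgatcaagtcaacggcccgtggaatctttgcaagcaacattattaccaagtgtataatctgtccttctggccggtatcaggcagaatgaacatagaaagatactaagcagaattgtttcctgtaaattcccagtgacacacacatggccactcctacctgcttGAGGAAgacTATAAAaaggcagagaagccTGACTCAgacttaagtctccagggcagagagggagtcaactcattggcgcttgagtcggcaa
Il1b: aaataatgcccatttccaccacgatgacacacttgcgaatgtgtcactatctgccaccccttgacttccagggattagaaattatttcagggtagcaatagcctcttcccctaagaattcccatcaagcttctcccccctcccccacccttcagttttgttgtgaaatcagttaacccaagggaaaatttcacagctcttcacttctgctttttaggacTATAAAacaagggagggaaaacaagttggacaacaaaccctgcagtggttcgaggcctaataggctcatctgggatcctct
TATAAA began 32 bases before the start site of Il1a and 31 before that of Il1b. It was found in 13.6% of the 32851 promoters of the table, TGANTCA in 7.81% and GAGGAA in 28.3%. Of the 15 listed promoters of the members, 4 had TATAAA (1 each of Il1a, Il1b, Il1rl2 and Il1rn) and 2 had TGANTCA (1 each of Il1a and Il1rn). The TATAAA matches of Il1rl2 and Il1rn read on the strand opposite to the gene. They lay 166 to 161 bases before the start site of Il1rl2 and at bases 15 to 20 after that of Il1rn. On the plus strand, the antisense gene Il1bos overlaps the 5′ end of Il1b and had 15 UMIs in all, against 622 of Il1b.

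Il1rn, the antagonist, was almost absent outside leukocytes but rested on very few cells. It had 67 UMIs in 13 Ptprc cells, a level of 0.151 (0.117 to 0.192), against 8 UMIs in endothelial cells and 2 in fibroblasts. The top 5 cells held 83.6% of these UMIs, with 26 and 18 in the first 2. As with Il1b, run 2 was higher: 60 UMIs in 8 cells and a level of 0.488 (0.372 to 0.628), against 7 UMIs in 5 cells and 0.0219 (0.00880 to 0.0451) in run 1. Of the 13 Ptprc cells with Il1rn, 7 also held Il1b, which was found in 13.8% of Ptprc cells. The single cell with 165 Il1b UMIs held 18 of Il1rn and 8 of Il1r2, so in this cell the ligand, the antagonist and the decoy were found together.

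Il1r1, the signaling receptor for both ligands, was the abundant member and the only one that was highest outside leukocytes. Fibroblasts had 8254 UMIs in 2310 cells and a level of 3.95 (3.86 to 4.03). Endothelial cells had 7757 UMIs in 2632 cells, at 1.44 (1.41 to 1.48), and Ptprc cells 472 UMIs in 170 cells, at 1.07 (0.971 to 1.17). No pair of these intervals overlapped. The level in fibroblasts was 2.74 times that in endothelial cells (2.65 to 2.82) and 3.71 times that in Ptprc cells (3.38 to 4.07). Both runs gave the same order, with 4.05, 1.54 and 1.26 in run 1 and 3.01, 1.04 and 0.561 in run 2.

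After thinning to 2000 UMIs, Il1r1 was found in 46.9% of fibroblasts (45.2 to 48.7), 18.2% of endothelial cells (17.4 to 19.1) and 12% of Ptprc cells (9.64 to 14.7). Part of the Il1r1 in Ptprc cells lay in cells that met another rule: without them the level fell to 0.566 (0.478 to 0.665), and fibroblasts were then 7.03 times higher (5.97 to 8.34). Cluster 11, a group of 115 cells led by Pax3 and Slc24a5, had 9 Il1r1 UMIs and a level of 0.161 (0.0736 to 0.306). In the Ptprc cells that met no other rule, Il1r1 was 0.142 times the level of the remaining fibroblasts (0.120 to 0.167), and the unused fibroblast markers stood at 5.07 against 35.2. Whether these Il1r1 UMIs belong to the leukocytes or to fibroblast RNA in them was not tested. Ptprc cells with fewer than 2 macrophage genes and fewer than 2 T and NK cell genes, 141 in all, had the gene at 2.25 (1.94 to 2.60).

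The 5 endothelial clusters differed more in Il1r1 than the 3 main groups did. Cluster 8, led by Fmo2 and Selp, had 5328 UMIs in 1478 cells and a level of 4.53 (4.41 to 4.65), above the mean of fibroblasts. The 3 fibroblast genes of the rule also stood higher there, at 0.440 times their mean over all cells against 0.0478 to 0.0816 times in the other 4 endothelial clusters, whereas the 7 unused fibroblast markers were at 6.85 in cluster 8 and between 7.47 and 13.1 in the others. The part of fibroblast RNA in this Il1r1 was not tested. Cluster 4 had 1.30 (1.24 to 1.38), whereas cluster 3 had 0.430 (0.400 to 0.463), cluster 5 had 0.419 (0.369 to 0.473) and cluster 9, led by Kif26b and Prox1os, had 0.388 (0.358 to 0.421). With both runs pooled the last 3 overlapped, and clusters 8 and 4 each stood apart from the other endothelial clusters. In run 1 the levels of clusters 8 and 9 were 4.81 and 0.377, and in run 2 they were 3.27 and 0.426, so the gap between them held in both. Clusters 3 and 4 were lower in run 2, at 0.284 and 0.694, and cluster 5 was higher, at 0.675 (0.582 to 0.780) against 0.213 (0.167 to 0.268) in run 1. Cluster 5 therefore lay below clusters 3 and 9 in run 1, and above them in run 2, where its interval overlapped that of cluster 4, at 0.694 (0.557 to 0.856). At resolution 1.0 the Fmo2 and Selp cluster had 4.69 (4.56 to 4.82) and the Kif26b cluster 0.362 (0.331 to 0.394). The Lcn2 cluster at that resolution, with 373 of its 404 cells in run 2, had 1.23 (1.11 to 1.36), above cluster 5. Cluster 6 at that resolution, led by Syt13 and Lefty1, had 0.2365 (0.2026 to 0.2745).

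The same cells were also split by single genes. Selp, one of the genes that lead cluster 8, so that a split by it restates that cluster in part, encodes P-selectin, which captures leukocytes on activated and venous endothelium, and Prox1 encodes a transcription factor of lymphatic endothelium and of one face of the valve. Among endothelial cells without Ptprc, the 1113 with Selp had Il1r1 at 3.44 (3.31 to 3.58) and the 7690 without it at 1.12 (1.09 to 1.16), a 3.06-fold difference (2.92 to 3.21). The 4292 cells with Prox1 had 1.28 (1.23 to 1.32) and the 4511 without it 1.64 (1.59 to 1.69). Il1a in the cells with Prox1 was 0.133 times that in the cells without it (0.0405 to 0.341), and with Selp 0.515 times (0.102 to 1.63), an interval that includes no difference.

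**Figure D2:**
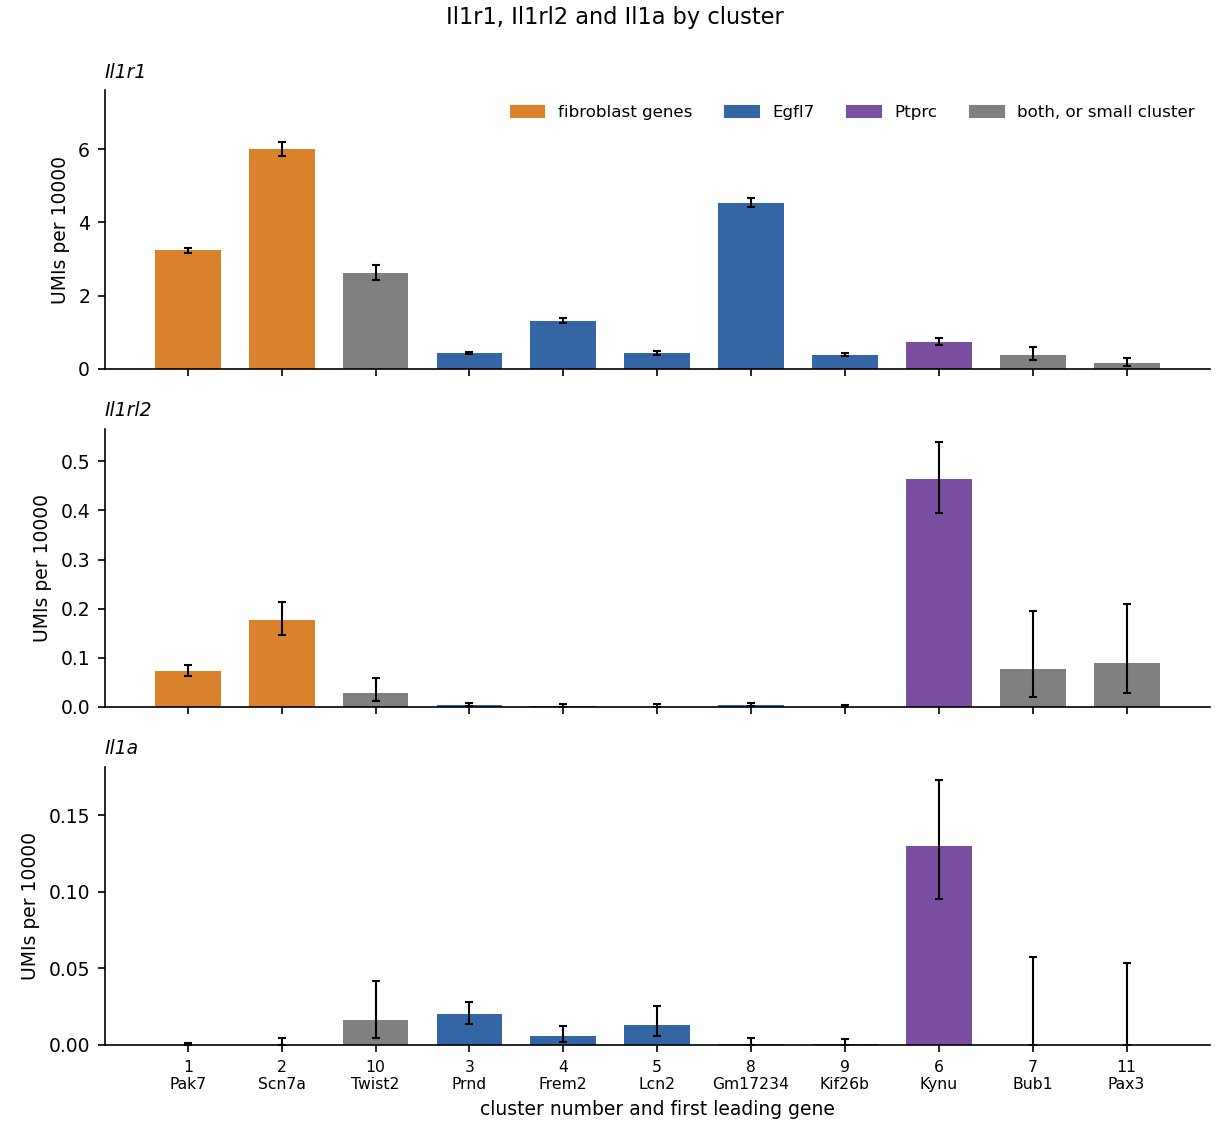
Levels of Il1r1, Il1rl2 and Il1a in UMIs per 10000 in each of 11 clusters, named by number and first leading gene, with 95% exact Poisson intervals; orange, blue and purple mark clusters led by fibroblast genes, Egfl7 and Ptprc, and grey marks clusters 7, 10 and 11, which are small or mixed. Il1r1 is high in fibroblast clusters 1 and 2 and in endothelial cluster 8, Il1rl2 is near 0 in all 5 endothelial clusters, and Il1a outside the leukocyte cluster 6 is highest in endothelial cluster 3.

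Among fibroblasts, Il1r1 was higher in cells with Scn7a, at 5.51 (5.32 to 5.71), than in those without, at 3.37 (3.28 to 3.46). The ratio was 1.64 (1.56 to 1.71), with 1.64 in run 1 and 1.86 in run 2. Cluster 2, led by Scn7a and Rgs7, had the highest level of Il1r1 of all clusters, at 6.0 (5.81 to 6.19), against 3.23 (3.16 to 3.31) in cluster 1, led by Pak7, Alx4 and Astn1. Fibroblast markers that the rule did not use ran opposite, summing to 22.8 with Scn7a and 39.6 without. Depth was close, with medians of 6527 and 5900 UMIs.

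The RefSeq table lists more than 1 start site for Il1r1. The one printed, inside the gene, was chosen because it was the only one of the 15 member promoters with a match to the NF-kB consensus, a motif searched by that name alone and found in 8.46% of all promoters. It covers chr1:40266336-40266635 on the plus strand of GRCm38.p6, and capitals mark the match, which lies 232 to 223 bases before the start site and reads on the minus strand.
Il1r1: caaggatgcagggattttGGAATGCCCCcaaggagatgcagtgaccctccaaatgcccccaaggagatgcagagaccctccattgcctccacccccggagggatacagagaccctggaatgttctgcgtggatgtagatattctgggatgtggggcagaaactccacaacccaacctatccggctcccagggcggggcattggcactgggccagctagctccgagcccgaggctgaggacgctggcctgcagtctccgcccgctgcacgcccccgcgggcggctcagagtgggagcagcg
The 3′ counts do not show which start site was used.

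Il1r2, the decoy receptor, was rare in every group. Ptprc cells had 55 UMIs in 24 cells at 0.124 (0.0935 to 0.162), fibroblasts 34 UMIs in 25 cells at 0.0163 (0.0113 to 0.0227) and endothelial cells 21 UMIs in 7 cells at 0.00390 (0.00242 to 0.00597). One endothelial cell held 14 of those 21 UMIs. One fibroblast held 8 of the 34 fibroblast UMIs, and the level in fibroblasts without it was 0.0124. After the shared cells were left out, 4 UMIs remained in endothelial cells and 31 UMIs in 23 cells remained in fibroblasts. The level in fibroblasts was then 0.0153 (0.0104 to 0.0217), which was 20.1 times that in endothelial cells (7.09 to 78.2). Among Ptprc cells, 9 of the 24 with Il1r2 also held Il1b.

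Il1rl1, which encodes ST2, was found mainly in Ptprc cells. Of 132 UMIs, 126 lay in 69 Ptprc cells, a level of 0.284 (0.237 to 0.339). Endothelial cells had 28 UMIs and fibroblasts 10, and 3 and 1 remained without the shared cells. The thinned share was 6.01% of Ptprc cells (4.33 to 8.09), against 0.0952% of endothelial cells and 0.0981% of fibroblasts. Mast cells are also known for ST2. Of 4 mast cell genes, 2 were listed, with 10 UMIs in Ptprc cells and 576 in endothelial cells, so they did not mark mast cells here and the part of mast cells in Il1rl1 was not tested.

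Il1rl2, the interleukin-36 receptor gene, was found in leukocytes and fibroblasts but hardly in endothelium. It had 167 UMIs in 104 Ptprc cells at 0.377 (0.322 to 0.439) and 205 UMIs in 145 fibroblasts at 0.0980 (0.0851 to 0.112). Endothelial cells had 49 UMIs at 0.00911 (0.00674 to 0.0120), or 15 UMIs at 0.00285 (0.00160 to 0.00471) without Ptprc cells. No intervals overlapped, and with the shared cells left out fibroblasts were 33.6 times higher than endothelial cells (19.9 to 61.3). As for Il1r1, fibroblasts with Scn7a were higher, at 0.168 (0.136 to 0.206) against 0.0721 (0.0593 to 0.0869), a ratio of 2.33 (1.75 to 3.10). In run 2 alone the ratio was 1.54 (0.675 to 3.47), an interval that includes no difference. The UMIs were spread thinly, since 101 of the 145 fibroblasts had a single one.

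Il1rl2 starts 7352 bases after Il1r1 ends on the same strand, and the part of reads that run past Il1r1 in its counts was not tested. There were 2.48 UMIs of Il1rl2 per 100 of Il1r1 in fibroblasts, 35.4 in Ptprc cells and 0.0751 in endothelial cluster 8, where 5328 UMIs of Il1r1 came with 4 of Il1rl2.

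The interleukin-18 receptor genes Il18r1 and Il18rap were both concentrated in Ptprc cells. Il18r1, the ligand-binding chain, had 172 UMIs in 50 Ptprc cells at 0.388 (0.332 to 0.451), against 0.00707 (0.00500 to 0.00970) in endothelial cells and 0.00239 (0.000776 to 0.00558) in fibroblasts. Il18rap, the accessory chain, had all 76 of its UMIs in 42 Ptprc cells, at 0.172 (0.135 to 0.215). Its 21 endothelial UMIs and 3 fibroblast UMIs were in cells that also held Ptprc, and none were left without the shared cells. The remaining Ptprc cells were at least 353-fold higher in Il18rap than the remaining endothelial cells, with 3 counts over the group as the limit, and the exact interval of this ratio began at 277.

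A small set of Ptprc cells held most of the Il18r1. The T and NK cell list has 8 genes in the matrix, and 31 Ptprc cells held UMIs of at least 2 of them, of which 1 also held 2 macrophage genes. These 31 cells had 108 of the 172 Il18r1 UMIs, in 23 cells, at a level of 7.5 (6.15 to 9.06). The 553 Ptprc cells with at least 2 macrophage genes had 42 UMIs in 23 cells, at 0.121 (0.0873 to 0.164). With cells of both kinds left out, the T and NK cell set was 63.3 times higher (43.9 to 92.7). Both runs contributed, with 7.16 among 16 cells in run 1 and 7.84 among 15 cells in run 2.

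The other receptors split in the same comparison. Il18rap was 11.3 times higher in cells with T and NK cell genes than in those with macrophage genes (6.49 to 19.1), although 21 of its 22 UMIs there were in run 1. Il1rl1 was 8.77 times higher (5.63 to 13.4) on 31 UMIs in only 4 cells, and Il1r1 3.76 times higher (2.60 to 5.30) on 38 UMIs in 8 cells. Il1rl2 went the other way, with 164 UMIs in 101 macrophage gene cells at 0.473 (0.403 to 0.551) and 1 UMI in the T and NK set. None of Il1a, Il1b, Il1rn and Il1r2 was detected in those 31 cells, whose limit of 0.208 lies below the level of Il1b in the macrophage gene cells, 1.66 (1.53 to 1.81), but above those of the other 3 genes. The 31 cells were shallower, with a median of 3548 UMIs against 5700.

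**Figure D3:**
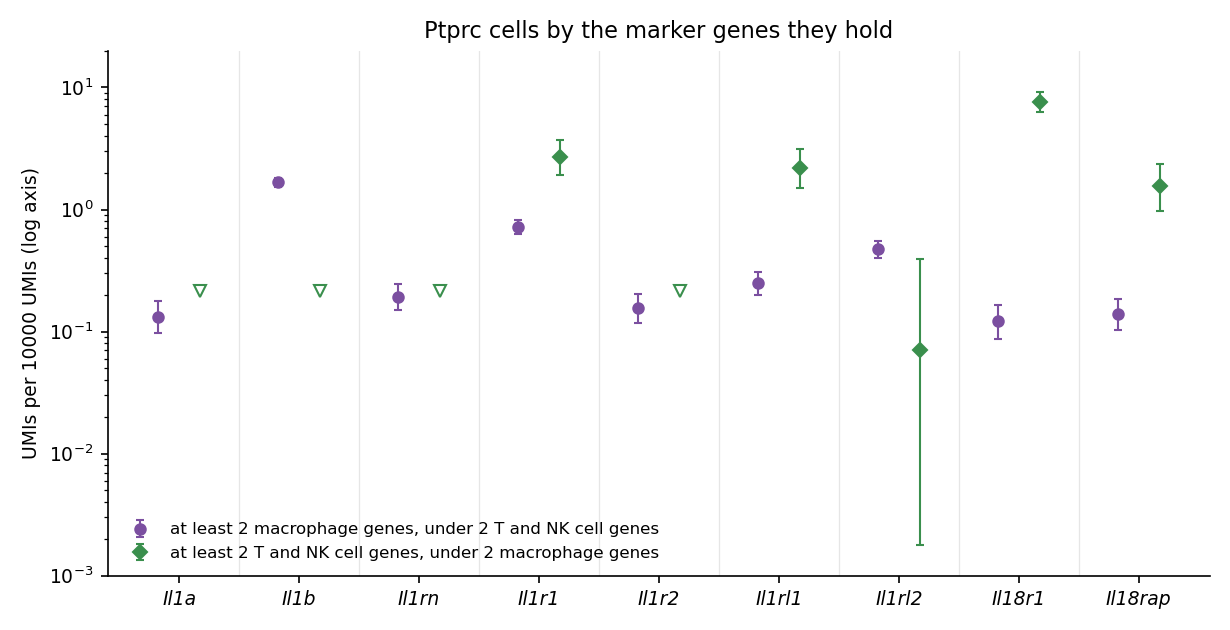
Level of each member on a log axis, in UMIs per 10000, in Ptprc cells with at least 2 macrophage genes and in those with at least 2 T and NK cell genes, cells of both kinds left out; bars are 95% exact Poisson intervals and open triangles limits at 0 UMIs. Il18r1, Il18rap, Il1rl1 and Il1r1 lie higher in the T and NK set, and Il1b and Il1rl2 in the macrophage set.

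The promoter of Il18rap is printed because this gene was found in Ptprc cells only. It covers chr1:40515112-40515411 on the plus strand of GRCm38.p6, from RefSeq, and capitals mark 2 copies of GAGGAA, 94 and 79 bases before the start site.
Il18rap: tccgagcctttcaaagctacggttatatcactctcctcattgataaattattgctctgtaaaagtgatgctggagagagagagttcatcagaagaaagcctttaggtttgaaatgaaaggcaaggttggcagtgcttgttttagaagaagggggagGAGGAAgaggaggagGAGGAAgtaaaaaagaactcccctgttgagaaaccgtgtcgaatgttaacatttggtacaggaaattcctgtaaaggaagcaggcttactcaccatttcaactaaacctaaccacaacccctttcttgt
GAGGAA was also found in a promoter of Il18r1, Il1a and Il1rl1, hence in 4 of the 15 member promoters, against 28.3% of all promoters, so it was no more frequent among the members.

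Splitting Ptprc cells by Mrc1 gave differences in both directions, and for some members intervals that overlapped or an order that did not hold in both runs. Without Mrc1, Il18r1 was at 0.908 (0.773 to 1.06) against 0.0450 (0.0232 to 0.0785) with it, a 20.2-fold difference (11.2 to 39.9) found in both runs. Il18rap was 4.55 times higher without Mrc1 (2.66 to 8.09), Il1r2 4.44 times (2.37 to 8.81) and Il1r1 2.64 times (2.18 to 3.21). For Il1r2 this rested on few cells, since the ratio was 2.08 (0.991 to 4.49) without the 2 cells that held most of it. Il1rl2 was the reverse, at 0.457 (0.380 to 0.546) with Mrc1 and 0.255 (0.186 to 0.342) without. Il1a was at 0.131 (0.0914 to 0.182) with Mrc1 and 0.0681 (0.0352 to 0.119) without, and these intervals overlapped. Those of Il1rl1 overlapped too, at 0.236 (0.181 to 0.302) and 0.358 (0.275 to 0.458). Without the cell highest in Il1rl1, its ratio of cells without Mrc1 to cells with it was 1.28 (0.871 to 1.87). The thinned shares of Il1rl1 ran the other way, at 7.11% (4.77 to 10.1) with Mrc1 and 4.41% (2.30 to 7.58) without, and overlapped.

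For Il1b the direction of this split turned with the barcode run, but in run 2 it rested on 3 cells. In run 1 the difference lay within counting error once the 3 highest cells were left out. In run 1 the level was higher with Mrc1, at 0.516 (0.422 to 0.625) against 0.228 (0.150 to 0.332), and in run 2 it was lower, at 2.08 (1.75 to 2.46) against 5.43 (4.85 to 6.07). The 3 cells of run 2 with the most Il1b, all without Mrc1, carried this: the ratio of cells without Mrc1 to cells with it was 2.61 (2.13 to 3.22) with them, 1.26 (0.9951 to 1.61) without the first and 0.585 (0.430 to 0.789) without all 3. In run 1 the same ratio was 0.698 (0.428 to 1.11) without the 3 highest cells, an interval that includes no difference. The pooled values of 0.899 with Mrc1 and 1.93 without followed run 2. Leaving out the 1 cell with the most Il1b brought the pooled ratio of cells without Mrc1 to cells with it from 2.15 to 1.11 (0.911 to 1.36). More cells with Mrc1 held Il1b at 2000 UMIs, 10.2% (7.35 to 13.6) against 6.99% (4.26 to 10.7), with overlapping intervals. Il1rn was 4.83 times higher without Mrc1 (2.71 to 9.07), or 0.670 times (0.233 to 1.72) without the 2 cells that held most of it, and all 51 UMIs without Mrc1 came from 6 cells of run 2, while run 1 had 0 UMIs in 224 cells without Mrc1.

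Other markers moved with the split. T and NK cell genes summed to 2.24 without Mrc1 and 0.165 with it, macrophage genes to 11.4 and 21.5, fibroblast genes to 11.9 and 6.47, and endothelial genes to 6.91 and 2.93. The part of these in the Il1r1 and Il18r1 differences was not tested.

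**Figure D4:**
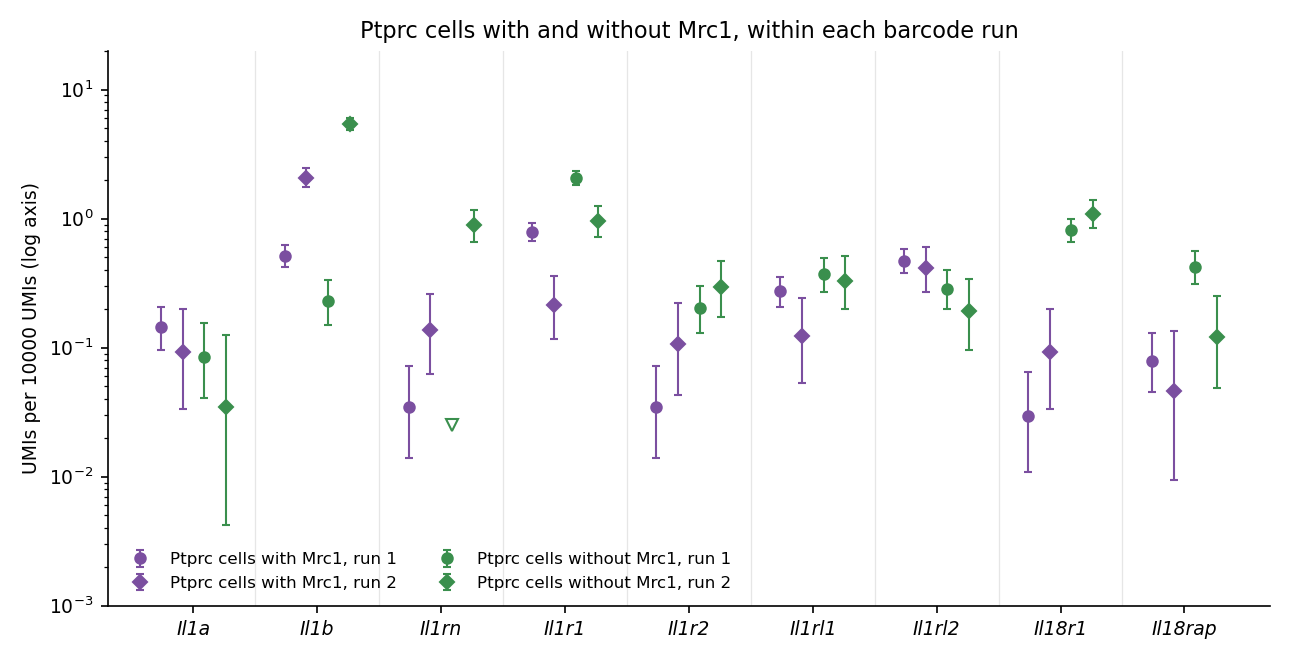
Level of each member on a log axis, in UMIs per 10000, in Ptprc cells with and without Mrc1 within barcode runs 1 and 2; bars are 95% exact Poisson intervals and the open triangle is the limit at 0 UMIs. Il18r1 lies higher without Mrc1 in both runs, whereas for Il1b the order of the groups is opposite in runs 1 and 2. The run 2 order rests on 3 cells, and the run 1 difference lies within counting error without the 3 highest cells.

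The 6 receptor genes lie in a row on the plus strand of chromosome 1, at chr1:40074079-40551705 in GENCODE M21 (GRCm38), a span of 477627 bases. Their order is Il1r2, Il1r1, Il1rl2, Il1rl1, Il18r1 and Il18rap. Neighbours differed in where they were found: Il1r1, the one receptor highest in fibroblasts, sits between Il1r2 and Il1rl2, which were highest in Ptprc cells with a lower level in fibroblasts. For the last 3 genes of the row, the intervals of fibroblasts and endothelial cells overlapped. Il18r1 begins 136 bases after Il1rl1 ends, and how reads at their border were assigned was not tested. Il1rl1 was found in 9 of the 50 Ptprc cells with Il18r1, or 18%, against 9.53% of all Ptprc cells. Il18r1 and Il18rap were found together in 12 Ptprc cells, 24.0% of those with the first and 28.6% of those with the second. Among all Ptprc cells, 6.91% held Il18r1 and 5.80% held Il18rap. Il1rn lies apart from Il1a and Il1b on chromosome 2, at chr2:24336853-24351494 on the plus strand.

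**Figure D5:**
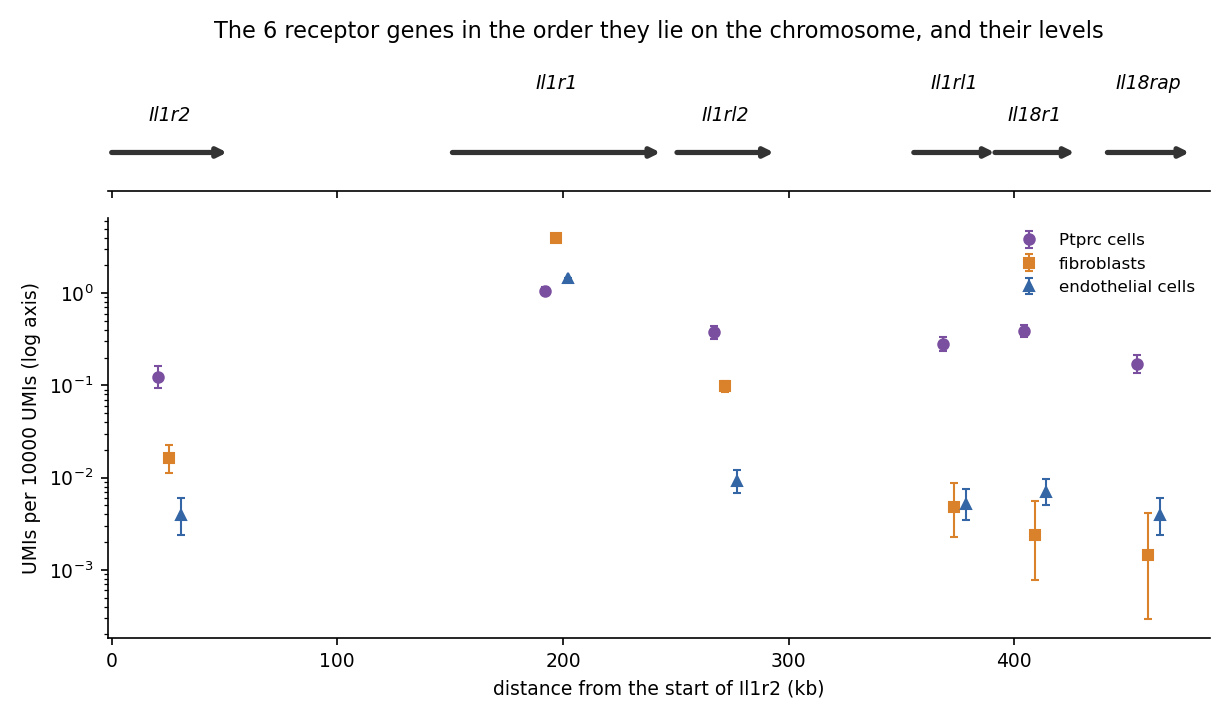
Upper panel, the 6 receptor genes drawn to scale as arrows in the direction of transcription, with distance from the start of Il1r2 in kb; lower panel, their levels in UMIs per 10000 on a log axis in the 3 main groups, with 95% exact Poisson intervals. Il1r1 is the one receptor for which fibroblasts, at 3.95, lie above Ptprc cells, at 1.07.

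Of 39 other genes of interleukin-1 signaling, 6 were listed and 5 had at least 50 UMIs. Among these, 3 were at least 2 times higher in Ptprc cells, against the 10.9% of all genes tested, and 2 in no group. Aim2, an inflammasome sensor of DNA that leads to the cleavage of interleukin-1β, was at 1.40 (1.29 to 1.51) in Ptprc cells, 0.0766 in endothelial cells and 0.0617 in fibroblasts. Tank, a regulator of TRAF signaling, stood at 2.43, 0.655 and 0.630, and Traf1 at 0.400, 0.146 and 0.0177. Traf6, the ubiquitin ligase that carries the receptor signal, differed little, at 0.454 (0.393 to 0.521), 0.434 (0.417 to 0.452) and 0.369 (0.343 to 0.396), the fibroblasts being lower than the endothelial cells beyond counting error. Ikbke, a kinase upstream of NF-kB and interferon genes, was at 0.239, 0.311 and 0.406. The interleukin-36γ gene, listed as Il1f9, had 3 UMIs in all, against 470 of the receptor gene Il1rl2. The accessory protein gene Il1rap and the genes of interleukin-18 and interleukin-33 were not analysed here.

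Of 19 genes known to be induced by interleukin-1, 6 were listed, all with at least 50 UMIs, and 2 were at least 2 times higher in fibroblasts, 2 in endothelial cells and 2 in no group, where 12.9% and 6.99% of all genes tested were called in fibroblasts and in endothelial cells. Tnfaip6, which encodes a hyaluronan-binding protein, was at 0.351 (0.326 to 0.377) in fibroblasts, 0.00390 in endothelial cells and 0.124 in Ptprc cells, and Ptges, a prostaglandin E synthase gene, at 0.0808 (0.0691 to 0.0940), 0.00298 and 0.0339. Selp and Sele, selectin genes, were at 0.453 and 0.357 in endothelial cells and at 0.0948 and 0.0722 in Ptprc cells. Ptgs2, which encodes cyclooxygenase-2, was at 0.159 in endothelial cells, 0.0909 in fibroblasts and 0.0655 in Ptprc cells, and Lcn2 at 0.0370, 0.00383 and 0.0339. The levels of these genes did not all follow Il1r1 over the endothelial clusters. Selp is one of the genes that lead cluster 8, where it was at 1.48 (1.41 to 1.55). Sele was higher in cluster 5, at 0.979 (0.902 to 1.06), and cluster 3, at 0.637 (0.60 to 0.676), than in cluster 8, at 0.311 (0.280 to 0.345). Ptgs2 was at 0.285 (0.259 to 0.313) in cluster 9 and 0.252 (0.214 to 0.294) in cluster 5, and at 0.0952 (0.0784 to 0.115) in cluster 8. Il1r1 was low in cluster 9, and in cluster 5 with both runs pooled. At resolution 1.0 the Lcn2 cluster, which has Ptgs2 among its leading genes, had Il1r1 at 1.23 (1.11 to 1.36).

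Over the 11 clusters, the genes with the pattern most like Il1r1 by Pearson correlation of log2 levels were Lrp4 (0.932), Gal3st2 (0.931), Gm32569 (0.929), Pabpc4l (0.915) and Zfand1 (0.904). For Il1b they were Ifi206 (0.988), Gm13710, Stat4, Siglec1 and Slamf7 (0.972), and for Il1a they were Il1b (0.935), Atf6, Hlx, Gm13710 and Capn3 (0.909). Il1rl1 was most like Cd48 (0.997), St8sia4, Psd4, Fcgr3 and Ifi209. Il18r1 was most like Siglec1 (0.996), Slamf7, Traf3ip3, Rasgrp1 and Fcrls, and Il1rl2 like Apbb1ip (0.964), Zfp120, Pag1, Rassf2 and Zeb2os. The clusters share libraries, and for every member but Il1r1 the single leukocyte cluster 6 lay above the rest, so these values describe 11 points of which 1 weighs most.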

How the data were processed

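The authors processed reads with Cell Ranger (7.1.0 on mm10, per the labels' processing notes), filtered and normalized cells in Seurat 4.3.0, and pooled libraries; Harmony 0.1.1 acts on principal components only. The deposited values are on a natural log scale, ln(1 + UMIs per 10000), and whole UMIs were recovered from them within 0.02. Of 3265 listed genes, 1 had 11958 empty values and was left out. The listed genes lie on chromosomes 1 to 3 and carry 15.7% of UMIs in the median cell, and cells had 503 to 23127 UMIs. Genes of other chromosomes were not analysed here. No count model was fitted, since the matrix is 1 sample without replicates. Intervals were computed with scipy 1.17.1. Cells were clustered with scanpy 1.11.5 (2000 variable genes without the members, 50 components, 15 neighbours, resolution 0.5, seed 1, no batch correction). Doublets were not called; cells meeting 2 rules were left out as an alternative. The 9 members and all lists were chosen with earlier results of these data known. All members are named, as are list genes with at least 50 UMIs; likeness used log2(level + 0.05), members with at least 100 and genes with at least 200 UMIs. The splits by 2 macrophage or T and NK cell genes, by Selp and by Prox1, and the Mrc1 splits without the cells highest in a member, were chosen after seeing the data. The recovery of UMIs and totals, the ratios of levels with their intervals, and the thinning were tested on simulated cells. The other steps were not tested this way.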

Additional observations from a re-analysis of the deposited data

How the results depend on the processing

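No paired analysis was possible because all barcodes form 1 sample. The members highest in each main group numbered 8 in Ptprc cells, 1 in fibroblasts and 0 in endothelial cells. These counts, which need no 2-fold difference, were recomputed under 11 alternatives, and the 2-fold calls were not. Of the alternatives, leaving out each member's highest cell and leaving out barcodes of both runs were chosen after seeing the data. Counting only members with at least 20 UMIs, the count for Ptprc cells was 7 of 8 with cells thinned to 2000 UMIs before grouping. It was 7 of 8 in run 1 alone and 6 of 7 in run 2 alone, and the other alternatives kept 8 of 9. The count stayed at 1 in fibroblasts and 0 in endothelial cells throughout. Of 99 recomputed log2 ratios between the highest and the next group, 71 moved by less than their counting interval, 28 moved by more and 0 reversed. The farthest moved when cells of 2 main groups were left out, Il1rl1 from 5.77 to 9.29 and Il18r1 from 5.78 to 8.67, and Il18rap, with 0 endothelial UMIs left, from 5.46 to a lower bound of 8.46. When clusters served as groups, clusters 7 and 11 were pooled with the leukocyte cluster 6, although 2 of the 115 cells of cluster 11 held Ptprc. Depth limits Il1a, Il1rn, Il1r2 and Il18rap, each with 100 UMIs or fewer. Differences in pooled Il1b and in Il1rn within Ptprc cells rest on few cells of run 2. The Il1b difference by Mrc1 in run 1 lay within counting error without the 3 highest cells. Without mice as replicates, no interval covers variation between animals, and genotype could not be compared.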
